A study of Mus musculus with 9 samples.

Results

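The miR-29 family is a set of small regulatory RNAs made from 4 hairpin genes, and it was measured here in the olfactory bulb of mice that breathed formaldehyde. Its probes were taken as those whose name on the array holds miR-29a, miR-29b or miR-29c, with either arm of the hairpin. This gave 7 of the 1027 mouse microRNA (miRNA) probes. The 3′ arms are mmu-miR-29a-3p, mmu-miR-29b-3p and mmu-miR-29c-3p, and the 5′ arms are mmu-miR-29a-5p, mmu-miR-29b-1-5p, mmu-miR-29b-2-5p and mmu-miR-29c-5p, where mmu stands for mouse and is left out from here on. Of these, 6 passed the filter on dim probes and were tested, and miR-29b-2-5p did not.

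MiRNAs are short RNAs that repress messenger RNAs carrying sites that pair with the miRNA's seed, the bases near its 5′ end. The 3p arm is the guide strand of the miR-29 family, which is known for repressing collagens and other matrix genes as well as the DNA methyltransferases Dnmt3a and Dnmt3b. In the mouse brain these miRNAs become abundant as neurons mature, where they restrain pro-apoptotic genes, and they are also found at high level in astrocytes. The 5p arm of such a hairpin is usually the passenger strand, released and degraded when the guide is loaded.

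All 9 arrays held olfactory bulb RNA of male ICR mice, an outbred strain, aged 8 weeks. In the group FA 7 days the mice were exposed in a chamber to 3 ppm formaldehyde (FA), an irritant gas, for 6 hours a day on 7 days (n = 3 arrays). Mice of FA 1 day had a single such day (n = 3), and control mice were kept alike but without the gas (n = 3). Whether the arrays come from different animals is not in the labels, so p-values measure the spread between these samples, which may be technical.

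The guide strands differ by only a few bases, so the sequences are given before the values. Mature sequences were matched by name in RefSeq (GRCm38.p6) for 7 of 7 probes and are given 5′ to 3′, with the seed (bases 2 to 8) in capitals.
miR-29a-3p: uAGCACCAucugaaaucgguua
miR-29b-3p: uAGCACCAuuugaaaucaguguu
miR-29c-3p: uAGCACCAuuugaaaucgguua
miR-29a-5p: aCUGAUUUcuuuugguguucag
miR-29b-1-5p: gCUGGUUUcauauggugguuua
miR-29b-2-5p: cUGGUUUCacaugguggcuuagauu
miR-29c-5p: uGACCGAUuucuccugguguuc

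The 3 guide strands shared the seed AGCACCA, and in the RefSeq table of 1679 mouse mature miRNAs no other miRNA carried it. MiR-29a-3p and miR-29c-3p differed at 1 of 22 positions, C10U (miR-29a-3p's base first, counted from 1 at the 5′ end). MiR-29b-3p and miR-29c-3p were identical over their first 17 bases and differed at 3 of the 22 positions compared, A18G, G21U and U22A. The 5p arms had 4 different seeds. The array's probe sequences were not used here, and how well a probe tells such close relatives apart was not tested.

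The hairpin genes lie in 2 pairs. Mir29a and Mir29b-1 stand on the minus strand of chromosome 6 with 275 bases between their hairpins, and Mir29b-2 and Mir29c on the plus strand of chromosome 1 with 426 bases between them. MiR-29a-3p comes from chr6:31062673-31062694 and miR-29a-5p from chr6:31062711-31062732. MiR-29c-3p comes from chr1:195037600-195037621 and miR-29c-5p from chr1:195037562-195037583. MiR-29b-3p is made by 2 genes, at chr6:31063025-31063047 and chr1:195037091-195037113, so its probe reads both pairs at once. Its 5p arms differ between the genes, miR-29b-1-5p at chr6:31063067-31063088 and miR-29b-2-5p at chr1:195037050-195037074.

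Intensities are given in 2 ways: as the deposited foreground minus background, averaged over the 4 spots of a probe, and as normalized log2 intensity after background correction and quantile normalization. Detection meant a mean foreground minus background of 30 or more. Each array detected 398 to 520 mouse probes, and over the 351 seen on all arrays its median signal lay between 224 and 441. The number of arrays limits the precision. FA 7 days replicate 3 and control replicate 2 stood apart: over the 462 tested probes their root mean square deviation from the other 8 arrays was 0.641 and 0.880 (log2), while that of the remaining 7 ran from 0.298 to 0.457. Of the markers of the tissue, 9 of 9 neuronal miRNA probes and 5 of 5 probes of the miR-200 family, known from olfactory neurogenesis, were detected on all 9 arrays. The liver miRNA miR-122-5p and the muscle miRNA miR-206-3p were detected on 0 arrays (foreground minus background of miR-122-5p 0.25 to 21.2), while 3 other muscle probes were detected on 3 to 9 arrays.

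None of the 6 tested miR-29 probes passed the test in any comparison, and neither did any other of the 462 probes. Among the miR-29 probes miR-29c-5p came closest. After normalization it lay 0.74 ± 0.29 (log2, SE) higher after 7 days than after 1 day, with no overlap between the groups. Of all tested probes, 20.1% did not overlap in that comparison, and 11.9% did so with FA 7 days higher. The guide strands miR-29c-3p and miR-29b-3p lay 0.94 and 1.01 above control after 7 days, and 0.31 and 0.08 without 1 control array, replicate 2. The miR-29a pair lay close to control or below it, and its spots differed from each other on several arrays, most of all on FA 7 days replicate 1.

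**Figure D1:**
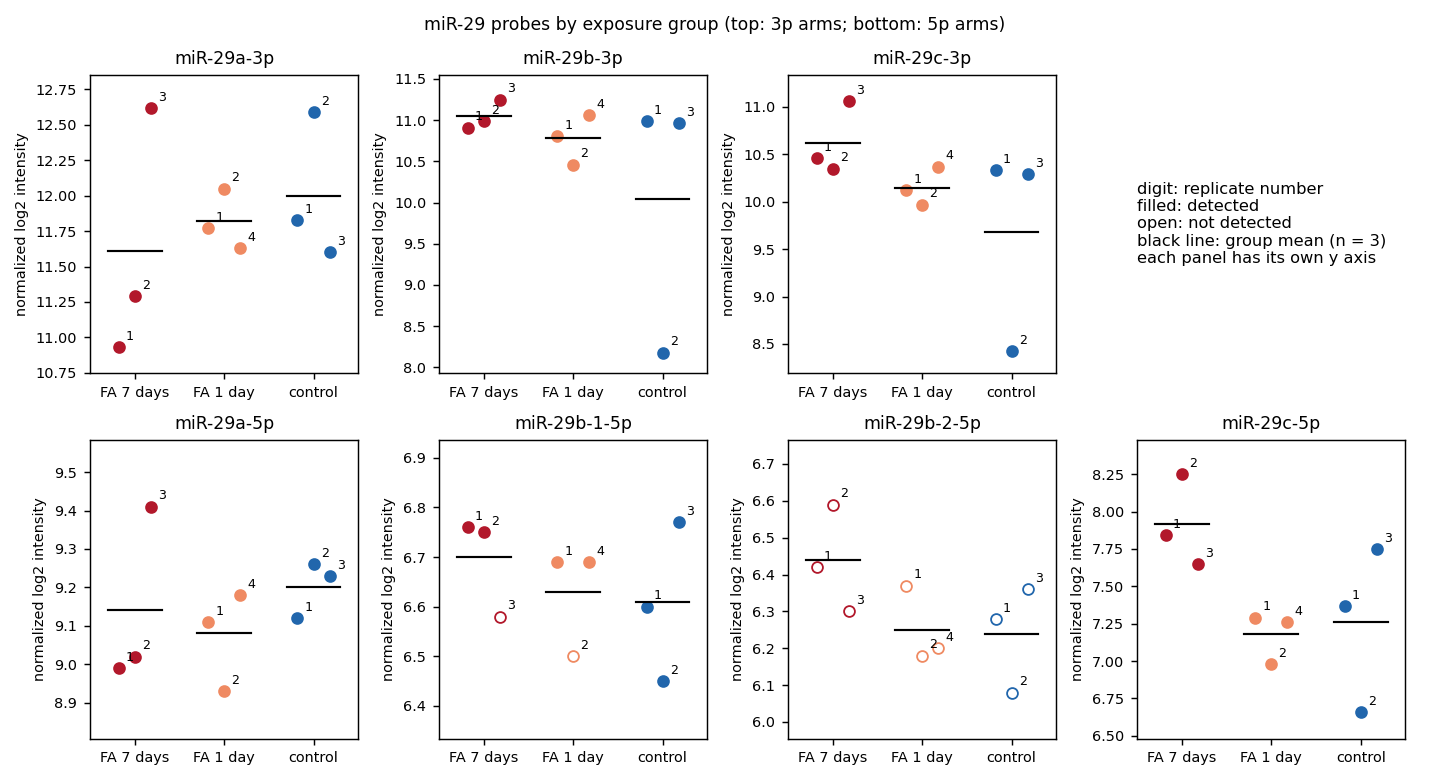
Normalized log2 intensity (y axis, own scale per panel) of the 7 miR-29 probes by group (x axis), with 1 point per array, its replicate number, and a black line at the mean of 3 arrays. Control replicate 2 sits far below every other array for miR-29b-3p (8.18) and miR-29c-3p (8.42), and the 3 FA 7 days arrays of miR-29c-5p (7.65 to 8.25) all lie above the 3 FA 1 day arrays (6.98 to 7.29).

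MiR-29c-3p, a guide strand, had a foreground minus background of 1974, 1422 and 1297 on the FA 7 days replicates 1, 2 and 3, of 1072, 809 and 1278 on the FA 1 day replicates 1, 2 and 4, and of 1268, 295.5 and 1200 on the control replicates 1, 2 and 3. The 3 arrays of FA 7 days were the highest of all 9, though by little, and control replicate 2 was the lowest. After normalization it averaged 10.62 ± 0.38 in FA 7 days, 10.15 ± 0.20 in FA 1 day and 9.68 ± 1.09 in control (SD, n = 3 each). The order of the means was FA 7 days, FA 1 day, control, and neighbours in that order overlapped.

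Against control, miR-29c-3p lay 0.94 ± 0.48 higher after 7 days (95% interval -0.14 to 2.02, limma adjusted p = 0.701). The groups did not overlap, but only just, with the lowest FA 7 days array at 10.35 and the highest control array at 10.33. Without control replicate 2 the difference was 0.31, without FA 7 days replicate 3 it was 0.72, and without both arrays it was 0.09. Weighting the arrays by quality gave 0.26. Of all tested probes, 10.6% did not overlap between these groups and 8.87% did so with FA 7 days higher, so 1 such probe among the 6 of the family is near the background. After 1 day miR-29c-3p lay 0.47 ± 0.48 higher than control (limma adjusted p = 0.807), and -0.15 without control replicate 2.

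MiR-29b-3p, the guide strand made by both gene pairs, had 2896, 2466 and 1425 on the FA 7 days replicates 1, 2 and 3, 1662, 1037 and 1955 on the FA 1 day replicates 1, 2 and 4, and 1861, 251.8 and 1932 on the control replicates 1, 2 and 3. Apart from control replicate 2, the groups lay over each other. Its normalized mean was 11.05 ± 0.18 in FA 7 days, 10.78 ± 0.30 in FA 1 day and 10.04 ± 1.61 in control (SD, n = 3 each).

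The difference of miR-29b-3p from control was 1.01 ± 0.66 after 7 days (95% interval -0.48 to 2.5, limma adjusted p = 0.701) and 0.74 ± 0.66 after 1 day (-0.76 to 2.23, adjusted p = 0.800). Without control replicate 2 these became 0.08 and -0.20, and with array weights the first was 0.17. Between 7 days and 1 day it was 0.27 ± 0.66 (-1.22 to 1.76, limma adjusted p = 0.990).

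On control replicate 2, miR-29b-3p and miR-29c-3p lay low and miR-29a-3p did not. Relative to the mean of the other 8 arrays, miR-29b-3p deviated by -2.75 and miR-29c-3p by -1.94, the 10th and 18th lowest of the 462 tested probes, while miR-29a-3p deviated by 0.87. The 4 spots of miR-29b-3p there read from 186 to 312 and those of miR-29c-3p from 266 to 344, so all spots of these probes were low on that array. The spots of miR-29a-3p there read 3227 and 3358 in block 2 of the array, within the range of that block on the other arrays, and 8380 and 8777 in its printed copy, block 20, above all others. Of all tested probes, 10.8% lay more than 1 log2 unit below the other arrays on control replicate 2 and 8.01% more than 1 above. What set that array apart was not tested.

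MiR-29a-3p, the guide strand of the Mir29a hairpin, had 2902, 3127 and 4044 on the FA 7 days replicates 1, 2 and 3, 3231, 4112 and 2810 on the FA 1 day replicates 1, 2 and 4, and 3584, 5936 and 2937 on the control replicates 1, 2 and 3. The groups overlapped throughout, with the highest value on control replicate 2. Its normalized mean was 11.61 ± 0.89 in FA 7 days, 11.82 ± 0.21 in FA 1 day and 12.00 ± 0.52 in control (SD, n = 3 each).

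The differences of miR-29a-3p were -0.39 ± 0.43 for FA 7 days against control (95% interval -1.37 to 0.59, limma adjusted p = 0.789) and -0.18 ± 0.43 for FA 1 day against control (-1.17 to 0.80, adjusted p = 0.930). FA 7 days against FA 1 day gave -0.21 ± 0.43 (-1.19 to 0.78, limma adjusted p = 0.981). Without control replicate 2, the first was -0.10 and the second 0.11. The first was also -0.05 without FA 7 days replicate 1 and -0.90 without FA 7 days replicate 3 (limma unadjusted p = 0.0221, adjusted p = 0.383). With median scaling of the arrays, the third was 0.01.

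The spots of the miR-29a probes differed most on FA 7 days replicate 1, with a coefficient of variation of 86.6% for miR-29a-3p and 117% for miR-29a-5p. On the other 8 arrays it ran from 3.63% to 51.5% and from 13.1% to 68.4%. Each probe is printed 4 times, and those of miR-29a-3p and miR-29a-5p all lie in blocks 2 and 20 of the array. On that array the spots of miR-29a-3p read 43 and 1646 in block 2, against 5560 and 4357 in block 20. The spots of miR-29a-5p read -2 and -9 in block 2, against 1246 and 1177 in block 20. The block 2 spots were the lowest of all spots of either probe over the 9 arrays, and the block 20 spots of miR-29a-5p were its highest.

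**Figure D2:**
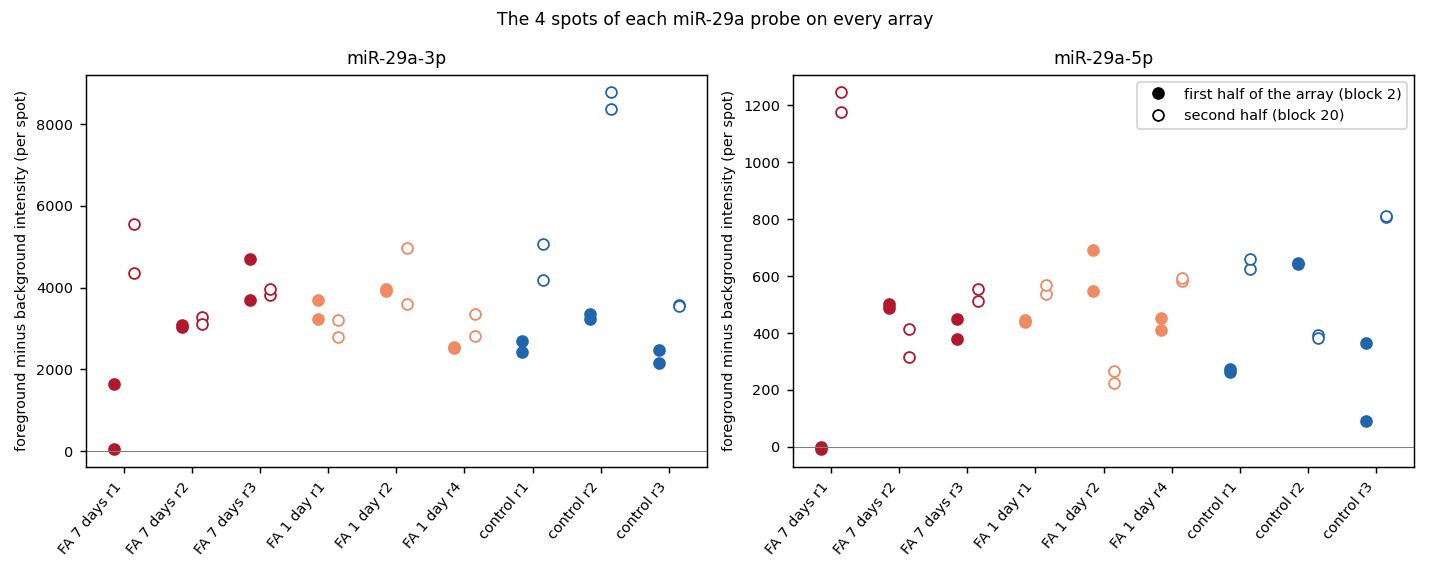
Foreground minus background intensity (y axis) of the 4 spots of miR-29a-3p (left) and miR-29a-5p (right) on each array (x axis, r for replicate), filled for block 2 and open for block 20. On FA 7 days replicate 1 the filled spots lie between -9 and 1646 and the open ones between 1177 and 5560, and each filled spot there is below every other spot of its probe on the other arrays.

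Other probes of that block were dim there too. Of 47 mouse spots in block 2 with a median of at least 100 on the other arrays, 31 read under 30 on FA 7 days replicate 1, against 0 of their copies in block 20. Their median there was 7 in block 2 and 694 in block 20. Over mouse probes bright on the other arrays, the median log2 ratio of block 2 to block 20 was -3.93 on that array, and blocks 3 and 5 lay at -2.81 and -2.66 against their copies. On the other 8 arrays the block 2 ratio ran from -0.82 to 0.56, and the copies of miR-29a-5p still differed on several of them. On control replicate 3 the probe read 89 and 366 in block 2, against 809 and 810 in block 20.

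With spots of blocks 1 to 18 only, an alternative chosen after these readings were seen, miR-29a-5p lay at -1.13 ± 0.75 for FA 7 days against FA 1 day (limma adjusted p = 0.699). With spots of blocks 19 to 36 only, it lay at 0.65 ± 0.43 (adjusted p = 0.675). For miR-29a-3p the same pair of values was -0.83 and 0.14. The direction for the miR-29a probes between 7 days and 1 day thus depended on which printed copies were read. No miR-29b or miR-29c spot lies in blocks 2, 3 or 5.

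MiR-29a-5p, the other arm of the same hairpin, averaged 603, 429.8 and 474.2 over its spots on the FA 7 days replicates 1, 2 and 3, 496.8, 433.2 and 509.8 on the FA 1 day replicates 1, 2 and 4, and 455, 517 and 518.5 on the control replicates 1, 2 and 3. These averages lay close together although the single spots did not. Its normalized differences were -0.06 ± 0.18 for FA 7 days against control (95% interval -0.47 to 0.34, limma adjusted p = 0.913) and -0.13 ± 0.18 for FA 1 day against control (-0.53 to 0.28, adjusted p = 0.880). FA 7 days against FA 1 day gave 0.06 ± 0.18 (-0.34 to 0.47, limma adjusted p = 0.990).

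MiR-29c-5p, the 5p arm of the Mir29c hairpin, read 198.8, 225 and 90.25 on the FA 7 days replicates 1, 2 and 3, 90.5, 65 and 94.25 on the FA 1 day replicates 1, 2 and 4, and 104.5, 44.75 and 130.8 on the control replicates 1, 2 and 3. In these unscaled readings FA 7 days replicate 3, the dimmest array, lay among the FA 1 day arrays. The authors' deposited ratios, which divide each array by its own factor, were 0.375, 0.648 and 0.327 in FA 7 days, 0.225, 0.162 and 0.227 in FA 1 day, and 0.266, 0.121 and 0.340 in control. On that scale, as after quantile normalization, each FA 7 days array lay above each FA 1 day array, while the control arrays overlapped both groups.

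After normalization miR-29c-5p averaged 7.92 ± 0.31 in FA 7 days, 7.18 ± 0.17 in FA 1 day and 7.26 ± 0.55 in control (SD, n = 3 each). FA 7 days against FA 1 day differed by 0.74 ± 0.29 (95% interval 0.08 to 1.40, a ratio of 1.67, limma unadjusted p = 0.0324 and adjusted p = 0.534). An unadjusted p under 0.05 was reached by 8.23% of all tested probes in that comparison, 20.1% did not overlap between the groups, and 11.9% did so with FA 7 days higher. MiR-29c-5p was the 1 of 6 miR-29 probes in each count. The difference kept its direction in each of the 14 other processing settings (0.66 to 1.16) and with each of the 9 arrays left out (0.57 to 0.87). Not all of these runs are checks of it. Settings that change only which probes or groups enter the fit, and leaving out a control array, cannot move this difference. MiR-29c-5p passed the test only when arrays were weighted by their quality (0.73, limma adjusted p = 0.0331), a setting with 23 calls over all probes.

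Against control, miR-29c-5p lay 0.65 ± 0.29 higher after 7 days (95% interval -0.01 to 1.32, limma adjusted p = 0.701), and 0.35 without control replicate 2. After 1 day it differed from control by -0.08 ± 0.29 (-0.75 to 0.58, adjusted p = 0.959). The F-test over the 3 groups gave it an unadjusted p of 0.0628 in limma (adjusted p = 0.670), the smallest among the 6 probes, where the other 5 had adjusted values of 0.717 to 0.970. Over all 462 probes, 6.71% had an unadjusted p under 0.05 in the F-test and 0 passed after adjustment.

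Markers of oligodendrocytes, the myelin-forming cells, lay in the same direction as miR-29c-5p. All 3 probes chosen as their markers (miR-219-5p, miR-338-3p and miR-338-5p) were higher after 7 days than after 1 day, by 0.72, 0.60 and 0.70, and none passed the test. Their summed foreground minus background ran from 835 to 2442 in FA 7 days and from 662 to 1198 in FA 1 day, with control at 738 to 1422. Vessel and connective tissue markers lay the other way, 6 of 7 lower after 7 days than after 1 day (median -0.61). So did all 4 red blood cell probes (median -0.36). Neuronal probes (5 higher, 3 lower), leukocyte probes (3 higher, 1 lower) and miR-200 family probes (2 higher, 3 lower) had medians of 0.04, 0.06 and -0.17. Of all tested probes, 49.6% lay higher in that comparison. Without FA 7 days replicate 3, an array that stood apart, 3 vessel probes lay higher and 4 lower (median -0.30). Their summed foreground minus background was 8559, 7415 and 1408 on the FA 7 days replicates 1, 2 and 3, and 6015 to 6602 in FA 1 day. The part of any of these cells in the miR-29c-5p values was not tested. In bulk tissue, fewer cells of a type and less RNA per cell cannot be told apart.

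The remaining 5p arms were near or under the detection limit. MiR-29b-1-5p read 49, 36.75 and 14.75 on the FA 7 days replicates 1, 2 and 3, 34, 25.25 and 43 on the FA 1 day replicates 1, 2 and 4, and 31.25, 30.75 and 39.75 on the control replicates 1, 2 and 3. It was detected on 2, 2 and 3 arrays of the groups in that order, and passed the filter through the control group. Its normalized differences were 0.09 ± 0.17 for FA 7 days against control, 0.03 ± 0.17 for FA 1 day against control and 0.07 ± 0.17 for FA 7 days against FA 1 day (limma adjusted p = 0.892, 0.974 and 0.990). The first 2 turned to -0.15 and -0.32 with median scaling of the arrays. MiR-29b-2-5p was detected on 0 of 9 arrays, with readings of 3 to 26 in FA 7 days, 6.25 to 13.5 in FA 1 day and 5.25 to 15.75 in control. No difference is given for it, and its level was below what these arrays could measure.

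**Figure D3:**
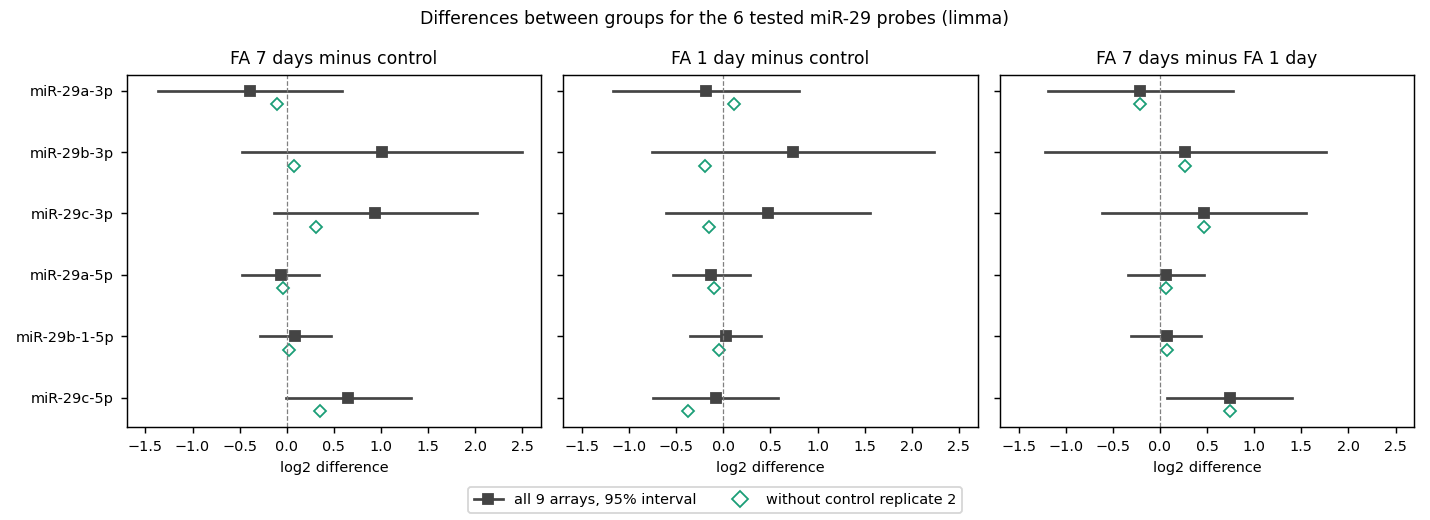
Log2 differences (x axis) of the 6 tested miR-29 probes (y axis) in 3 comparisons, as squares with their 95% interval from limma over all 9 arrays, and as diamonds without control replicate 2. The diamonds of miR-29b-3p and miR-29c-3p against control move towards 0 or past it (0.08 and 0.31 after 7 days, -0.20 and -0.15 after 1 day), and only the interval of miR-29c-5p in FA 7 days minus FA 1 day (0.08 to 1.40) leaves 0 out.

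Taken as a family, 4 of the 6 tested probes lay higher and 2 lower after 7 days than in control, with a median log2 difference of 0.37. Over all 462 probes the median was 0.06, and 58.2% lay higher. After 1 day against control 3 lay higher and 3 lower (median -0.03, against 0.06 over all probes), where 57.4% of all probes lay higher. FA 7 days against FA 1 day had 5 higher and 1 lower (0.17, against 0.00), where 49.6% of all probes lay higher. Of these 5, miR-29a-5p and miR-29b-1-5p lay only 0.06 and 0.07 higher. Without FA 7 days replicate 3 the count was 4 higher and 2 lower. Groups that did not overlap were seen for 0 of the 6 in FA 1 day against control, where 14.9% of all probes had them. None of these counts is a test, and both comparisons with control use the same control arrays. Without control replicate 2 the family's medians were 0.05, -0.13 and 0.17 in the same order, and those of all probes 0.07, 0.03 and 0.00. Passing at an adjusted p of 0.05 in limma were 0 of 462 probes (0%) in each comparison, while an unadjusted p under 0.05 was reached by 21 probes (4.55%) in FA 7 days against control, by 29 (6.28%) in FA 1 day against control and by 38 (8.23%) in FA 7 days against FA 1 day.

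The share of all tested probes that lay higher depended on the scaling. It was 58.2% in FA 7 days against control with quantile normalization and 45.2% with median scaling, and 57.4% and 41.1% in FA 1 day against control. The median of all probes in FA 1 day against control moved from 0.06 to -0.09 between these scalings. The guide strands miR-29b-3p and miR-29c-3p stayed above control under both, at 1.11 and 0.95 after 7 days and at 0.56 and 0.38 after 1 day with median scaling. Both scalings include control replicate 2. Without it, with quantile normalization, they lay at 0.08 and 0.31 after 7 days and at -0.20 and -0.15 after 1 day.

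Other miRNAs linked to brain maturation or glia were set beside the family. Of 11 such probes (5 of the miR-30 family, miR-125b-5p, 2 of the miR-26 family and 3 of the let-7 family), 10 lay higher and 1 lower after 7 days than in control, with a median of 0.30, and none passed the test. Of all tested probes, 58.2% lay higher in that comparison (median 0.06). MiR-30a-5p lay furthest above control at 1.12, let-7c-5p at 0.63 and let-7b-5p at 0.51, and miR-30b-5p was the 1 below it at -0.41. After 1 day against control 6 lay higher and 5 lower (median 0.00). Without control replicate 2 the list's median after 7 days was 0.13, with 9 higher and 2 lower. With FA 7 days replicate 3 left out as well it was 0.08, with 8 higher and 3 lower. Over all tested probes the median was then 0.09, and 60.6% lay higher.

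The tested members did not all vary alike over the 9 arrays, as a description: Pearson r was 0.96 between miR-29b-3p and miR-29c-3p, but -0.49 between miR-29a-3p and miR-29b-3p and -0.84 between miR-29a-3p and miR-29b-1-5p (0.85, 0.13 and -0.77 without control replicate 2). MiR-29b-1-5p lay near the detection limit and ranged only from 6.45 to 6.77. The miR-29a-3p values include the dim block 2 spots of FA 7 days replicate 1. The mean of the members' centred values was most like let-7b-5p (Pearson r = 0.98), then miR-181a-5p (0.97), miR-136-5p (0.92), miR-9-5p (0.92) and miR-99a-5p (0.91), out of 455 other tested probes whose median r was 0.05. These arrays are the same for all probes, and the 5 were picked for their likeness. All 5 had their lowest value on control replicate 2: miR-181a-5p stood at 7.38 there, against 10.58 to 12.39 on the other 8 arrays. Without that array let-7b-5p (0.93) and miR-181a-5p (0.91) still ranked 1st and 4th, and the other 3 had r of 0.61 to 0.65. However, let-7b-5p and miR-181a-5p both had their highest value on FA 7 days replicate 3 (13.17 and 12.39), the other array that stood apart. On the remaining 7 arrays they ran from 12.17 to 12.66 and from 10.58 to 11.45. The r without both arrays was not computed. This mean stood at 0.46 on FA 7 days replicate 3 and at -0.71 on control replicate 2, where miR-29b-3p and miR-29c-3p had the largest deviations of the 6, while the remaining 7 arrays lay between -0.15 and 0.14.

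**Figure D4:**
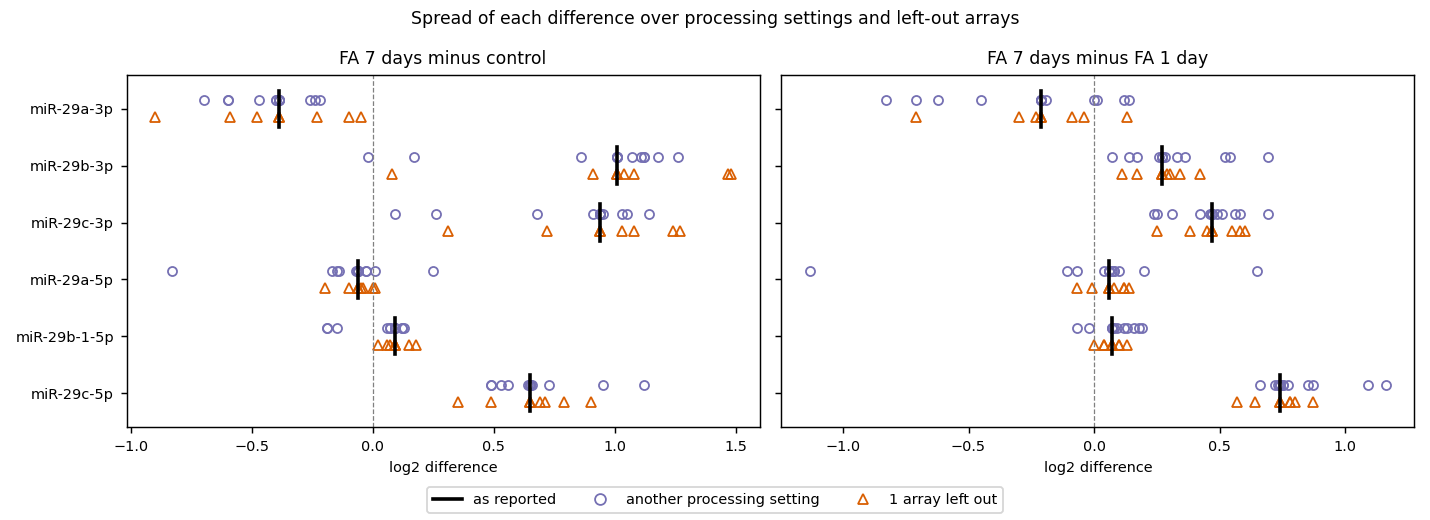
Log2 differences (x axis) of the 6 tested miR-29 probes (y axis) in FA 7 days minus control (left) and FA 7 days minus FA 1 day (right), as reported (black bar), under other processing settings (circles) and with 1 array left out (triangles). MiR-29c-5p stays right of 0 in both panels (0.35 to 1.12 and 0.57 to 1.16), whereas miR-29a-5p spreads from -1.13 to 0.65 in the right panel.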

How the data were processed

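Total RNA was labelled with Hy3 (1 colour) from an Exiqon miRCURY kit, per the labels' protocols. Per the file headers, the deposited raw table holds foreground intensity and foreground minus background intensity of 12312 spots. Which scanner was used is not given in the sources used here. In the deposited value table each value is a linear ratio with its direction and scale settled here: a column is the probe's median spot over 1 factor for that array (within 1% for 100% of values), with no centring of probes. Column medians run from 0.0196 to 0.16.

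From the raw table, normexp (offset 50), averaging of spots, quantile normalization over the 1084 miRNA probes and log2 were applied (R 4.3.3, limma 3.58.1). Tested were the 462 mouse probes detected on all arrays of at least 1 group. A group-means model over all 9 arrays was fitted with limma (lmFit, eBayes), two-sided, with Benjamini-Hochberg adjustment and a threshold of 0.05. The pipeline was tested on simulated data. Other settings of background, scaling, filter, spots, samples and array weights (whose estimation stopped with a convergence warning) were alternatives. The labels do not say that the replicate numbers pair the arrays, so no pairing was used. Same-numbered arrays did not consistently deviate together (correlations of -0.58 to 0.33), but so few arrays cannot exclude a pairing. All miR-29 probes are named, and like probes are the 5 with the highest r. The members and lists were chosen with earlier results of these data known.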

Additional observations from a re-analysis of the deposited data

How the results depend on the processing

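With 3 arrays a group, standard errors ran from 0.17 (miR-29b-1-5p) to 0.66 (miR-29b-3p), and 1 array set much of the widest: without control replicate 2 that of miR-29b-3p in FA 7 days against control was 0.22. The smallest belongs to a probe near the detection limit, and was 0.27 with plain background subtraction and 0.36 with the deposited ratios. Over 14 other processing settings (12 for miR-29b-1-5p, which passed no stricter detection filter) and with each of the 9 arrays left out, the differences of miR-29c-5p and miR-29c-3p between FA 7 days and either other group, of miR-29b-3p between FA 7 days and FA 1 day, and of miR-29a-3p between FA 7 days and control kept their direction, but not their size: miR-29c-3p against control ranged from 0.09 (without both arrays that stand apart) to 1.27, and miR-29a-3p from -0.90 to -0.05. Some of these runs cannot move a difference. They are those that change only which probes or groups enter the fit, or leave out an array of the group not compared. No miR-29 probe passed the test in any setting or with any array left out, with 1 exception. This was miR-29c-5p in FA 7 days against FA 1 day with array weights (0.73, limma adjusted p = 0.0331), where 23 of 462 probes passed. Unadjusted calls ranged from 6 to 75 over the settings in FA 7 days against control, from 14 to 104 in FA 1 day against control and from 16 to 126 in FA 7 days against FA 1 day.

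With 1 array left out, the number of probes past the threshold ranged from 0 to 1 in each comparison with control, and the 1 came without control replicate 3. For FA 1 day against control the ranges were -0.39 to 0.11 for miR-29a-3p, -0.05 to 0.11 for miR-29b-1-5p, -0.20 to 1.21 for miR-29b-3p, -0.15 to 0.80 for miR-29c-3p and -0.38 to 0.16 for miR-29c-5p. For FA 7 days against control, miR-29a-5p ranged from -0.20 to 0.01. For FA 7 days against FA 1 day, miR-29a-3p ranged from -0.71 to 0.13 and miR-29a-5p from -0.07 to 0.14.

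The other reversals, whose cause was not tested, were these. Without both control replicate 2 and FA 7 days replicate 3, FA 1 day against control gave 0.11 for miR-29a-3p, -0.05 for miR-29b-1-5p, -0.20 for miR-29b-3p and -0.15 for miR-29c-3p, FA 7 days against control gave -0.02 for miR-29b-3p, and FA 7 days against FA 1 day gave -0.07 for miR-29a-5p. Median scaling gave 0.01 for miR-29a-3p in FA 7 days against FA 1 day, 0.01 for miR-29a-5p in FA 7 days against control, and -0.32 and -0.15 for miR-29b-1-5p after 1 day and after 7 days against control. MiR-29b-1-5p lay at -0.35 and -0.19 with no normalization, at -0.12 and -0.19 with the deposited ratios, and at 0.00 after 1 day with the median over spots. The deposited ratios also gave 0.12 for miR-29a-3p and -0.07 for miR-29b-1-5p in FA 7 days against FA 1 day. Array weights gave -0.11 for miR-29a-5p in that comparison. Spots of blocks 1 to 18 only, chosen after seeing the data, gave 0.23, 0.29 and -0.07 for miR-29a-3p, miR-29a-5p and miR-29b-1-5p in FA 1 day against control and -1.13 for miR-29a-5p in FA 7 days against FA 1 day. Spots of blocks 19 to 36 gave 0.14 for miR-29a-3p and -0.02 for miR-29b-1-5p in FA 7 days against FA 1 day, 0.25 for miR-29a-5p in FA 7 days against control and 0.07 for miR-29c-5p in FA 1 day against control.

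The labels do not say whether the replicate numbers pair the arrays. With a replicate block, miR-29a-3p lay at 0.06 in FA 1 day against control and miR-29c-5p at 0.72 in FA 7 days against FA 1 day (limma adjusted p = 1), and 0 probes passed in any comparison, with 6, 14 and 16 unadjusted calls for FA 7 days against control, FA 1 day against control and FA 7 days against FA 1 day.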
